A study of Mus musculus with 47 samples.

Results

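The response of the mouse cortex to the CSF1R inhibitor PLX5622 was examined at Zeitgeber time 14 (ZT14), early in the dark phase. The 7 libraries were chosen by their labels from a series of 47: 3 mice on control diet and 4 on PLX5622 diet, all collected at ZT14. The study fed male C57BL/6J mice either diet for 10 days and collected cortex at 6 Zeitgeber times to ask whether the removal of microglia alters daily gene expression. Lights were on from ZT0 to ZT12 of a 12:12 h cycle, and the mice were about 3 months old and kept 4 to a cage. The control mice received control chow and the treated mice AIN-76A chow with PLX5622 at 1200 ppm. The other 5 times, ZT2, ZT6, ZT10, ZT18 and ZT22, hold 40 libraries of 40 other mice, with 4 mice per diet and time, and served here as the comparison.

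Several features limit these groups. PLX5622 was given in the chow, so CSF1R was open to inhibition in every tissue of the body, and the diet reaches macrophages at the borders of the brain as well as microglia. Each library came from 1 mouse, and the cortex was microdissected as bulk tissue, so that the values mix RNA of all its cell types. In bulk tissue, fewer cells of a type and less RNA per cell cannot be told apart. Total counts ranged from 18777482 to 27626161 per library, and mitochondrial transcripts took 16.4% to 20.01% of TPM (transcript abundance scaled by length and depth) in the control mice and 17.98% to 21.4% in the PLX5622 mice.

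The cortical label was checked against markers. *Slc17a7*, the vesicular glutamate transporter of cortical excitatory neurons, was at 720.2, 455 and 785 TPM in the control mice and 537, 519, 697 and 618 TPM in the PLX5622 mice. The summed TPM of 11 genes of these neurons was 982, 659 and 1082 TPM in the control mice and 759.6, 743, 953 and 893 TPM in the PLX5622 mice. The groups overlapped in both, and these genes were present in all 7 libraries. Of the PLX5622 libraries, 2 stood apart through cerebellar transcripts. The summed TPM of 14 cerebellar genes was 54.0, 48.9 and 64.0 TPM in the control mice and 57.0, 49.99, 321 and 172 TPM in the PLX5622 mice. Replicate 3 had the highest sum of all 47 libraries and replicate 4 the fourth highest, so several results below are also given without these libraries.

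Microglia are the resident macrophages of the brain, and without activity of the receptor CSF1R most of them die. The receptor has the ligands CSF1 and IL-34, of which IL-34 is made largely by neurons. Microglia are also the main source of the complement protein C1q in the brain, which takes part in the tagging of synapses and debris for removal.

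Expression was compared as log2(TPM + 1), a scale that understates the change of low genes, with a limma model of all 12 diet and time groups. At ZT14, 129 of 14580 genes tested (0.885%) were called lower in the PLX5622 mice and 3 (0.0206%) higher at an adjusted p under 0.05. At an unadjusted p under 0.05 there were 628 genes, 293 lower and 335 higher. The median log2 fold change of all genes tested was 0.03. In 128 of the 129 lower genes, all but *Cmtm7*, every PLX5622 library lay below every control library, against 289 genes (1.98%) in the whole table, and all 3 higher genes lay above, against 462 (3.17%). Of the 129 lower genes, 127 were protein coding. The PLX5622 mean was under 50% of the control mean in 117 of them and under 10% in 39. On the deposited counts, edgeR called 268 of 18274 genes lower (1.47%) and 3 higher (0.0164%), and DESeq2 called 263 of 30850 lower (0.853%) and 4 higher (0.013%). Of the 129 lower genes, 125 were also called lower by edgeR (96.9%, and 46.6% of the edgeR genes) and 123 by DESeq2 (95.3%, and 46.8%). Without PLX5622 replicate 3, limma called 120 genes lower, 117 of them among the 129, and 2 higher. Without replicates 3 and 4 it called 117 lower, 111 of them among the 129, and 2 higher. The count of higher genes was 9 without control replicate 2, 6 without PLX5622 replicate 2, 5 without PLX5622 replicate 4 of ZT18, and 1 without control replicate 3.

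**Figure D1:**
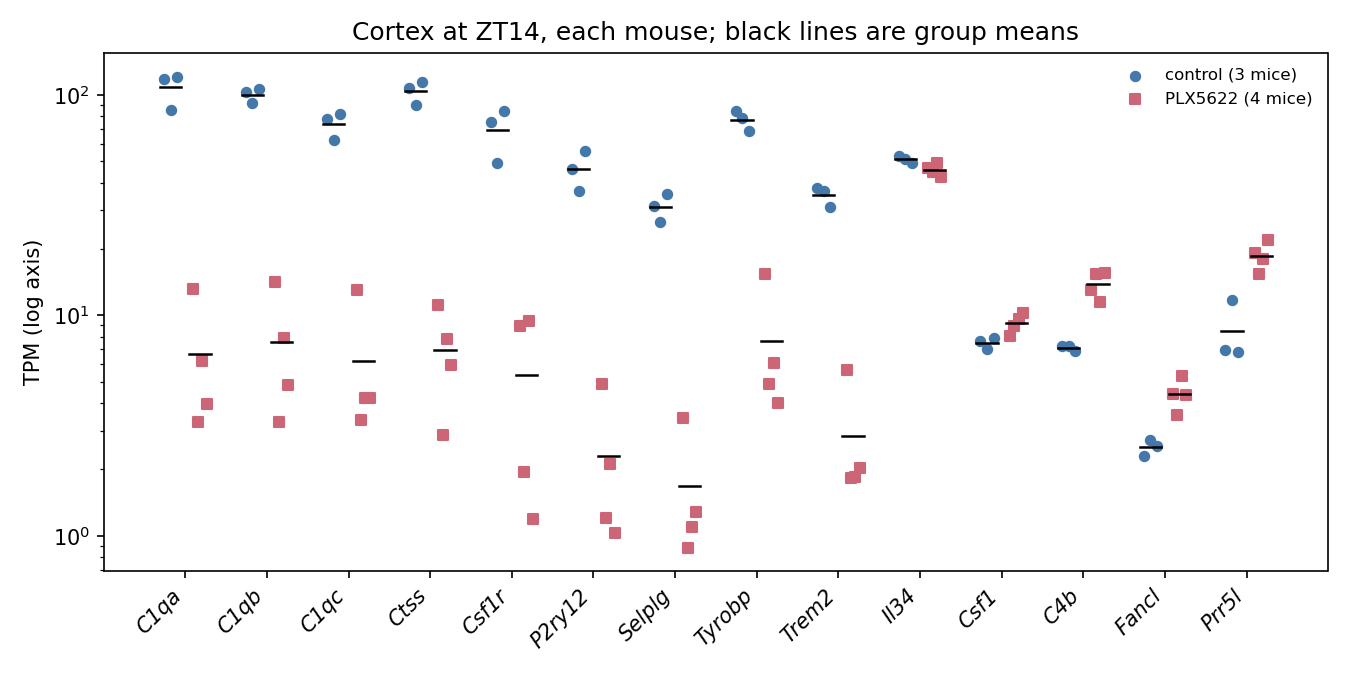
TPM of 14 genes in each control mouse (circles, n = 3) and each PLX5622 mouse (squares, n = 4) at ZT14 on a log axis, with black lines at the group means. From *C1qa* to *Trem2* all PLX5622 mice sit below all control mice, and for *C4b*, *Fancl* and *Prr5l* they sit above.

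CSF1R, the target of PLX5622, is the tyrosine kinase receptor on which microglia depend. *Csf1r* was at 75.1, 49.3 and 84.4 TPM in the control mice and 8.97, 1.94, 9.41 and 1.19 TPM in the PLX5622 mice. The PLX5622 mice fell into a higher pair, replicates 1 and 3, and a lower pair, and all of them lay below the controls. The log2 fold change was -3.76 (limma adjusted p = 2.97e-07, standard error 0.47), and at ZT2, ZT6, ZT10, ZT18 and ZT22 it was -4.31, -3.26, -3.92, -2.71 and -3.33. The ligands did not pass the test. *Il34* was at 52.8, 51.0 and 49.0 TPM in the control mice and 46.4, 44.6, 49.0 and 42.5 TPM in the PLX5622 mice, a log2 fold change of -0.16 (adjusted p = 1, standard error 0.20). Its highest PLX5622 value lay just under the lowest control value. *Csf1* was at 7.62, 7.003 and 7.88 TPM in the control mice and 8.01, 8.94, 9.65 and 10.2 TPM in the PLX5622 mice. All 4 PLX5622 values lay above the controls, but the log2 fold change of 0.26 (standard error 0.11) had an adjusted p of 0.999, and edgeR gave 0.852.

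Complement genes were called in both directions. C1q, the recognition molecule of the classical pathway, is built from 3 chains whose genes lie side by side on chromosome 4 of GRCm38. *C1qa* (chr4:136895917-136898803) was at 118, 85.5 and 121 TPM in the control mice and 13.1, 3.29, 6.18 and 3.97 TPM in the PLX5622 mice. *C1qb* (chr4:136880129-136886187) was at 103, 91.4 and 106 TPM in the control mice and 14.2, 3.30, 7.91 and 4.82 TPM in the PLX5622 mice. *C1qc* (chr4:136889804-136893065) was at 77.8, 62.1 and 82.2 TPM in the control mice and 13.1, 3.36, 4.20 and 4.20 TPM in the PLX5622 mice. In each of the 3 genes the PLX5622 mice were far below the controls, with replicate 1 the highest of the 4. The log2 fold changes were -3.98 (adjusted p = 1.62e-07, standard error 0.48), -3.73 (adjusted p = 7.80e-07, standard error 0.49) and -3.54 (adjusted p = 9.49e-06, standard error 0.52). *Itgb2*, the beta chain of complement receptor 3, was lower by a log2 fold change of -1.58 (adjusted p = 1.19e-07). Of the 9 complement genes, limma tested 6 and called 4 lower and 1, *C4b*, higher, with a median log2 fold change of -2.56 against 0.03 over all genes. The receptors *C3ar1* and *C5ar1* and the central component *C3* were under the mean of 1 TPM needed for limma. On the counts, edgeR and DESeq2 tested all 9 and each called 7 lower and 1 higher. Over all genes tested, limma called 0.885% lower and 0.0206% higher, edgeR 1.47% and 0.0164%, and DESeq2 0.853% and 0.013%.

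*C4b* encodes complement component C4, which acts directly after C1q in the classical pathway and is also made by astrocytes. It was at 7.23, 7.23 and 6.90 TPM in the control mice and 13.1, 15.4, 11.5 and 15.6 TPM in the PLX5622 mice. The 3 control mice were nearly equal and every PLX5622 mouse lay above them, with a mean at 195% of the control mean. The log2 fold change was 0.87 (adjusted p = 0.000355, standard error 0.16), 0.83 in edgeR (adjusted p = 0.000935) and 0.84 in DESeq2 (adjusted p = 0.000138). Without PLX5622 replicate 3 it was 0.95, and without replicates 3 and 4 0.90. At ZT2, ZT6, ZT10, ZT18 and ZT22 the log2 fold changes were 0.45, 0.61, 0.36, 0.75 and 0.33. The difference between ZT14 and the mean of the other times was 0.37 (95% confidence interval 0.02 to 0.71), which did not pass adjustment over all genes (limma adjusted p = 0.9999). The counts for this gene are uncertain to the extent that reads are shared with the near-identical copy *C4a*.

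Several of the largest changes were in genes of microglial surface and signalling proteins. P2RY12 is the ADP receptor by which microglia sense injury, and *P2ry12* (chr3:59216272-59262871) was at 46.3, 36.8 and 55.7 TPM in the control mice and 4.89, 1.21, 2.12 and 1.03 TPM in the PLX5622 mice. *Selplg*, which encodes the selectin ligand PSGL-1, was at 31.3, 26.5 and 35.3 TPM in the control mice and 3.43, 0.884, 1.10 and 1.29 TPM in the PLX5622 mice. The log2 fold changes were -3.95 (adjusted p = 8.86e-11, standard error 0.35) and -3.66 (adjusted p = 4.98e-10, standard error 0.35). TREM2 is a lipid-sensing receptor that signals through the adaptor TYROBP. *Trem2* (chr17:48346401-48354147) was at 37.9, 36.6 and 31.0 TPM in the control mice and 5.65, 1.83, 1.84 and 2.04 TPM in the PLX5622 mice. *Tyrobp* was at 84.0, 78.7 and 68.8 TPM in the control mice and 15.4, 4.90, 6.10 and 4.00 TPM in the PLX5622 mice. Receptor and adaptor were both called lower, with log2 fold changes of -3.33 (adjusted p = 2.76e-10, standard error 0.31) and -3.35 (adjusted p = 7.50e-07, standard error 0.43). *Ctss* (chr3:95526786-95556403), the gene of the lysosomal protease cathepsin S, was at 107, 90.2 and 114 TPM in the control mice and 11.1, 2.87, 7.83 and 5.97 TPM in the PLX5622 mice, a log2 fold change of -3.83 (adjusted p = 4.27e-08, standard error 0.44). In these 5 genes all PLX5622 mice lay below all control mice. In *P2ry12*, *Selplg*, *Trem2* and *Ctss* replicate 1 kept the highest level of the PLX5622 mice, and *Tyrobp* did the same.

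Of 24 genes on a microglial list, all were tested and 22 were called lower at ZT14, against 0.885% of all genes tested. Their median log2 fold change was -2.98, against 0.03 over all genes tested. At ZT2, ZT6, ZT10, ZT18 and ZT22 the median of the same list was -3.01, -2.49, -2.88, -2.25 and -2.53, with 22, 23, 23, 23 and 23 members called lower. The summed TPM of the list was 747, 631 and 769 TPM in the control mice and 134, 68.4, 91.3 and 74.8 TPM in the PLX5622 mice. Group means were 716 ± 74.1 TPM (SD, n = 3) and 92.1 ± 29.4 TPM (SD, n = 4). The control mean at ZT14 was the highest of the 6 control means and that at ZT18, 569.8 ± 52.7 TPM (SD, n = 4), the lowest. Single control mice ran from 631 to 769 TPM at ZT14 and from 529 to 647 TPM at ZT18, so these ranges overlapped. The PLX5622 means ran from 69.6 TPM at ZT2 to 106 TPM at ZT18. Differences of this sum between times were not tested. The members with the smallest p were *Itgam*, the alpha chain of complement receptor 3, at -2.69 (adjusted p = 1.10e-13) and *P2ry13*, another ADP receptor, at -2.77 (adjusted p = 1.07e-12). *Sall1*, a transcription factor of microglial identity, was at 7.67, 7.62 and 8.84 TPM in the control mice and 5.95, 5.37, 7.53 and 6.77 TPM in the PLX5622 mice without overlap but was not called (adjusted p = 1). *Mertk*, a phagocytic receptor that astrocytes express too, was at 26.0, 17.8 and 20.1 TPM in the control mice and 24.6, 21.5, 17.3 and 20.6 TPM in the PLX5622 mice, with overlapping groups. *Sall1* and *Mertk* were chosen after their values were seen. The diet effect at ZT14 differed from that at the other times in 0 of the 24 genes by limma. At an unadjusted p under 0.05 there were 0, against 505 of all 14580 genes. edgeR and DESeq2 called 0 as well, with 2 each at an unadjusted p under 0.05, against 842 of 18274 and 998 of 37179 genes.

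Border macrophages lie in the meninges and around vessels and also carry CSF1R. Of 10 genes on their list, 3 reached the level for testing in TPM and 2 were called lower, while edgeR called 8 of 9 tested lower and DESeq2 9 of 10. Over all genes tested, limma called 0.885% lower, edgeR 1.47% and DESeq2 0.853%. *Pf4*, which encodes platelet factor 4, was at 5.21, 4.48 and 4.66 TPM in the control mice and 0, 0.492, 0.750 and 0 TPM in the PLX5622 mice. *Stab1*, a scavenger receptor, was at 5.87, 5.44 and 3.81 TPM in the control mice and 1.04, 0.727, 0.628 and 1.97 TPM in the PLX5622 mice. The log2 fold changes were -2.18 (adjusted p = 2.12e-06) and -1.55 (adjusted p = 1.32e-05), with no overlap between groups. *Cbr2*, at 2.16, 2.66 and 3.39 TPM in the control mice and 0.732, 0.683, 0.858 and 0.184 TPM in the PLX5622 mice, did not overlap either, but limma did not call it (adjusted p = 0.281) while edgeR did (adjusted p = 0.00450). *Mrc1*, the mannose receptor, was chosen after its values were seen and was untested in limma, at 1.497, 1.18 and 1.06 TPM in the control mice and 0.0357, 0.0432, 0.0535 and 0.0345 TPM in the PLX5622 mice (edgeR adjusted p = 7.28e-12, DESeq2 adjusted p = 1.23e-24). The median log2 fold change of the 3 tested genes was -1.55, and the TPM of all 10 genes summed to 18.9, 18.6 and 17.5 TPM in the control mice and 2.49, 2.28, 3.10 and 2.60 TPM in the PLX5622 mice.

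Other immune lists had medians nearer to 0. For comparison, limma called 0.885% of all genes tested lower, edgeR 1.47% and DESeq2 0.853%. Of 7 genes for MHC presentation, limma called 1 lower, edgeR and DESeq2 each called 4 lower, and 4 lay below the controls without overlap (1.98% over all genes tested), with a median of -0.92. The edgeR call of *H2-Eb1*, a class II chain, was lost without PLX5622 replicate 3 (adjusted p = 0.0132 with all libraries and 0.0563 without it). *H2-Aa*, another class II chain, was at 4.16, 4.03 and 3.80 TPM in the control mice and 1.44, 1.201, 1.503 and 1.89 TPM in the PLX5622 mice, a log2 fold change of -1.0 (adjusted p = 0.0325), a call that was lost when any of 6 libraries of ZT14 was left out, up to an adjusted p of 0.162 without control replicate 1, and that had an adjusted p of 0.0912 without PLX5622 replicates 3 and 4. In edgeR it had an adjusted p of 0.0132, and 0.0621 without replicate 3. Reads may be shared between related H2 genes, so their values are uncertain. Of 10 lysosomal genes limma called 2 lower, and 1 of these calls was lost when any of 36 single libraries was left out, while edgeR and DESeq2 each called 6. The other gene called by limma was *Ctsd*, the gene of cathepsin D, at 244, 245 and 320.1 TPM in the control mice and 169.7, 161, 203 and 201 TPM in the PLX5622 mice (log2 fold change -0.55, adjusted p = 0.0189). That call was lost without control replicate 3 or PLX5622 replicate 1 or 2, with a highest adjusted p of 0.534 without the control. The lysosomal median was -0.40. Of 10 genes of TGF-beta signalling, limma called 2 lower and edgeR and DESeq2 3, and the median was -0.06. The receptor *Tgfbr1* was at 10.1, 7.13 and 9.36 TPM in the control mice and 3.14, 3.12, 3.93 and 3.83 TPM in the PLX5622 mice (log2 fold change -1.12, adjusted p = 1.48e-06), and the ligand *Tgfb1* at 6.17, 3.14 and 5.70 TPM in the control mice and 2.39, 1.72, 2.66 and 2.43 TPM in the PLX5622 mice (log2 fold change -0.83, adjusted p = 0.00259). In both genes the groups did not overlap, and the *Tgfb1* call was lost without control replicate 1 (adjusted p = 0.10) or 3 (adjusted p = 0.0664). Of 14 interferon response genes 11 were tested, with a median of -0.02, and limma, edgeR and DESeq2 called 0 of them at ZT14, with 1 at an unadjusted p under 0.05 in limma. That gene was *Bst2*, which encodes the antiviral protein tetherin, at 15.3, 14.1 and 13.04 TPM in the control mice and 10.6, 8.93, 9.70 and 13.6 TPM in the PLX5622 mice (log2 fold change -0.38).

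Besides *C4b*, limma called 2 genes higher at ZT14. *Prr5l*, which encodes a protein that binds the mTORC2 complex, was at 6.94, 11.7 and 6.82 TPM in the control mice and 19.1, 15.5, 18.04 and 21.9 TPM in the PLX5622 mice. Every PLX5622 mouse lay above every control mouse, and the log2 fold change was 1.08 (adjusted p = 0.00266, standard error 0.22). On the counts the change had the same direction but was smaller and was not called. There were 216, 324 and 205 counts in the control mice and 478, 343, 255 and 405 in the PLX5622 mice. edgeR gave a log2 fold change of 0.51 (adjusted p = 0.208) and DESeq2 0.51 (adjusted p = 0.261). The call was also lost without control replicate 1 (adjusted p = 0.0539) or 3 (adjusted p = 0.0645), and without PLX5622 replicates 3 and 4 (adjusted p = 0.0919). *Fancl*, a ubiquitin ligase of DNA crosslink repair, was at 2.30, 2.71 and 2.55 TPM in the control mice and 4.41, 3.52, 5.32 and 4.34 TPM in the PLX5622 mice. These groups did not overlap either, with a log2 fold change of 0.61 (adjusted p = 0.0431, standard error 0.16), but edgeR gave 0.43 (adjusted p = 0.789). Of the 47 fits that each left out 1 library, 10 lost the *Fancl* call, as did 10 of 12 other settings, among them DESeq2, ratio scaling, no filter, a pseudocount of 0.1, trend and robust settings, and only the libraries of ZT14. Those libraries were all 3 control mice and PLX5622 replicates 1, 3 and 4 of ZT14, control replicates 1 of ZT2, 3 of ZT10 and 4 of ZT22, and PLX5622 replicate 2 of ZT18, with a highest adjusted p of 0.286 without control replicate 1 of ZT14. It was 0.248 without PLX5622 replicate 3 and 0.764 without replicates 3 and 4. The genes that edgeR called higher were *C4b*, *Trp53inp1* and *Enpp6*, and DESeq2 added *Stag1*. Without PLX5622 replicate 3 limma called *C4b* and *Prr5l* higher, and without replicates 3 and 4 *C4b* and the pseudogene *Gm48583*. *Gm48583* was listed at 0 in all control mice, in PLX5622 replicate 4 and in 36 of 40 libraries of the other times, and the counts did not follow, with 4, 4 and 5 counts in the control mice and 3, 10, 9 and 5 in the PLX5622 mice, so this call is not taken as a difference. *Trp53inp1*, a p53 target gene, was at 3.80, 3.57 and 4.16 TPM in the control mice and 5.27, 4.78, 5.03 and 5.07 TPM in the PLX5622 mice (limma adjusted p = 0.138, edgeR adjusted p = 0.0354, and 0.0515 in edgeR without PLX5622 replicate 3). *Enpp6*, a marker of newly forming oligodendrocytes, was at 1.92, 2.78 and 2.62 TPM in the control mice and 3.23, 2.53, 2.95 and 4.17 TPM in the PLX5622 mice with 112, 141 and 93 counts in the control mice and 213, 179, 155 and 234 in the PLX5622 mice (limma adjusted p = 1, edgeR adjusted p = 0.0367). *Trp53inp1*, *Stag1* and *Gm48583* were chosen after their values were seen.

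What is particular to ZT14 was tested as the difference between the diet effect at ZT14 and the mean diet effect at the other 5 times. In limma 0 of 14580 genes (0%) passed, with 505 (3.46%) at an unadjusted p under 0.05, against 729 for 5% of the genes tested. On the same genes 775 had an unadjusted p under 0.05 with the replicate block and 833 with the mitochondrial share as covariate, and 0 passed in both. Of the 505, 337 were higher and 168 lower relative to the other times. edgeR called 0 genes, with 842 at an unadjusted p under 0.05 (415 higher and 427 lower), and DESeq2 called 0, with 998 (530 higher and 468 lower). The smallest adjusted p was 0.341 in limma, 0.236 in edgeR and 0.252 in DESeq2. Without PLX5622 replicate 3 limma called 0 genes and had 449 at an unadjusted p under 0.05 (301 higher and 148 lower). Without replicates 3 and 4 it called 0 and had 460 (246 higher and 214 lower). Leaving out control replicate 1 gave 3 calls, among them *Ndufc1* (difference -1.01, adjusted p = 0.01003) and *Fcgr1* (-1.01, adjusted p = 0.0358). Leaving out control replicate 2 gave 1 call, *Gh* (adjusted p = 0.00182).

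Counting both directions, 188 genes (1.29%) were called at ZT2, 147 (1.01%) at ZT6, 156 (1.07%) at ZT10, 118 (0.809%) at ZT18 and 189 (1.3%) at ZT22, against 132 at ZT14. The 3 higher genes at ZT14 compared with 16, 6, 8, 5 and 7 at the other times in order, and the 628 genes at an unadjusted p under 0.05 with 1396, 1055, 1098, 799 and 1132. The other times have 4 control mice each and ZT14 has 3, so these counts rest on unequal groups. Of the 129 genes lower at ZT14, 97 (75.2%) belonged to the 101 genes lower at each of the other 5 times, and 126 (97.7%) to the 242 lower at any of them. The median log2 fold change of the 129 genes was -1.49 at ZT14 and -1.35 at the other times, but the genes were chosen by their value at ZT14. The difference had a median of -0.12 in these genes (quartiles -0.25 and 0.01), against 0.01 over all genes tested (quartiles -0.09 and 0.12).

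**Figure D2:**
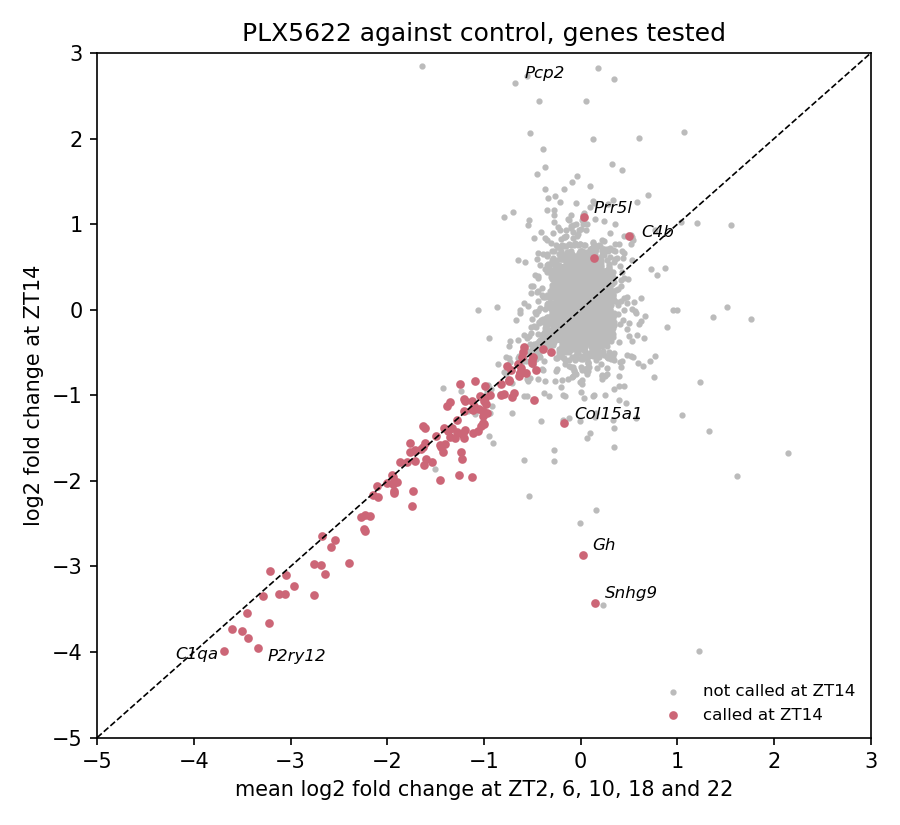
Log2 fold change of each gene tested at ZT14 (vertical axis) against the mean log2 fold change at the other 5 times (horizontal axis), with genes called at ZT14 in red and equal values on the dashed line. *Snhg9*, *Gh* and *Col15a1* lie far below the line near 0 on the horizontal axis, and *Pcp2*, a cerebellar gene that was not called, lies above it.

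The other times were also summarised in 1 fit of their 40 libraries, which shares no mouse with ZT14. It called 439 of 14563 genes lower (3.01%) and 124 higher (0.851%). Of the lower genes, 437 were tested at ZT14, where 126 were called lower (28.8%) and 174 did not overlap (39.8%), with median log2 fold changes of -0.36 at the other times and -0.24 at ZT14. Of the higher genes, 123 were tested at ZT14, where 1, *C4b*, was called (0.813%) and 11 lay above all controls (8.94%), with medians of 0.23 and 0.04. Over all genes tested at ZT14, 0.885% were called lower and 1.98% lay below all controls, and 0.0206% were called higher and 3.17% lay above. Both sets were chosen by their values at the other times, which favours larger medians there. ZT14 also has far fewer mice, which lowers the share called. The smaller values at ZT14 therefore do not show a weaker diet effect.

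Of the 132 genes called at ZT14, 5 were not among the genes called over the 40 libraries of the other times. *Prr5l* and *Fancl*, described above, and *Col15a1* were tested there, while *Snhg9* and *Gh* were under a mean of 1 TPM and were not tested. These 2 genes reached a mean of 1 TPM over all libraries only through the control mice of ZT14, so their calls are not taken as a difference at ZT14, although they remain in the counts. *Snhg9* is a small nucleolar RNA host gene (chr17:24719531-24719965, minus strand of GRCm38) that lies inside the ribosomal protein gene *Rps2* (chr17:24718116-24721929, plus strand). It was at 4.55, 9.65 and 19.8 TPM in the control mice and was listed at 0 in all 4 PLX5622 mice (limma adjusted p = 0.00670). The count table held 0, 1 and 0 counts in the control mice and 1, 0, 0 and 0 in the PLX5622 mice. The 2 tables thus disagree for this gene, and the cause was not tested. The call was lost without control replicate 3 (adjusted p = 0.158) and without PLX5622 replicates 3 and 4 (adjusted p = 0.0772), and DESeq2 gave an adjusted p of 1. At the other times *Snhg9* was listed at 0 in 32 of 40 libraries. *Rps2* itself, chosen after its values were seen, was at 885, 762 and 865 TPM in the control mice and 900.0, 864, 818 and 772 TPM in the PLX5622 mice, with overlapping groups. Whether the libraries kept the strand of the RNA was not stated.

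*Gh* encodes growth hormone, a product of the anterior pituitary. It was at 34.1, 0.0857 and 9.11 TPM in the control mice, with counts of 277, 1 and 87, and was listed at 0 in all 4 PLX5622 mice in both tables. The control mice were far apart, with replicate 1 highest. limma called the gene (adjusted p = 0.0177) and so did edgeR (adjusted p = 0.00683), while DESeq2 did not (adjusted p = 0.279). Leaving out control replicate 1 raised the limma adjusted p to 0.734 and leaving out replicate 3 to 0.189. Without PLX5622 replicates 3 and 4 it was 0.148. *Prl*, the gene of the pituitary hormone prolactin, was chosen after its values were seen and was tested in DESeq2 alone (adjusted p = 1), and its counts were likewise highest in control replicate 1, with 33, 1 and 7 counts in the control mice and 0, 0, 1 and 0 in the PLX5622 mice. At the other times *Gh* was listed at 0 in 24 of 40 libraries, with a highest value of 3.96 TPM. Pituitary RNA was not tested as a source of the difference.

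*Col15a1*, which encodes a basement membrane collagen, was at 0.883, 1.29 and 13.7 TPM in the control mice and 0.697, 0.484, 0.625 and 0.556 TPM in the PLX5622 mice. The control range was set by replicate 3. The groups did not overlap in TPM (log2 fold change -1.33, adjusted p = 0.0488), but the counts did, with 65, 68 and 95 counts in the control mice and 79, 50, 43 and 48 in the PLX5622 mice, and edgeR gave -0.55 (adjusted p = 0.761). Without control replicate 3 the log2 fold change was -0.39 (limma adjusted p = 0.9998). The limma call was also lost without any single PLX5622 replicate, such as 3 (adjusted p = 0.104), and without replicates 3 and 4 (adjusted p = 0.302). Control replicate 3 also held muscle transcripts that the other 6 libraries lacked or held at low counts. *Myh4*, a fast muscle myosin, had 6, 8 and 455 counts in the control mice and 9, 12, 7 and 7 in the PLX5622 mice, and *Tnnt3*, a fast muscle troponin, had 1, 0 and 180 counts in the control mice and 5, 7, 0 and 0 in the PLX5622 mice. *Col15a1*, *Myh4* and *Tnnt3* were chosen after their values were seen. edgeR called both muscle genes lower (adjusted p = 0.00401 and 0.0150) and DESeq2 *Tnnt3* (adjusted p = 0.0472), so transcripts of control replicate 3 enter the counts of lower genes. *Myh4* also had the smallest edgeR p of the difference (adjusted p = 0.236). The part of such transcripts in other results was not tested.

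The 10 genes with the smallest p for the difference in limma were *Ndufc1*, *Snhg9*, *Prr5l*, *Ndufab1*, *Whrn*, *Gh*, *Pomp*, *Mospd3*, *Bcl2l11* and *Sub1*, none of which passed adjustment. *Ndufc1* and *Ndufab1* encode subunits of respiratory complex I. *Ndufc1* was at 140.1, 223 and 234 TPM in the control mice and 134, 158, 141 and 163 TPM in the PLX5622 mice. Its log2 fold change was -0.38 at ZT14 and 0.42, 0.33, 0.10, 0.61 and 0.53 at ZT2, ZT6, ZT10, ZT18 and ZT22, a difference of -0.78 (95% confidence interval -1.12 to -0.44, adjusted p = 0.341). *Ndufab1* was at 142, 174 and 161 TPM in the control mice and 120.0, 134, 134 and 154 TPM in the PLX5622 mice, with a log2 fold change of -0.23 at ZT14 and a difference of -0.71 (95% confidence interval -1.04 to -0.38, adjusted p = 0.341). In both genes the groups of ZT14 overlapped, and the sign was opposite to that at each of the other 5 times. On the counts, edgeR gave smaller differences of -0.17 and 0.06. *Pomp*, a proteasome assembly factor, differed by -0.53 (-0.13 in edgeR) and *Sub1*, a transcriptional coactivator, by -0.40 (-0.23 in edgeR). Higher relative to the other times were *Whrn*, a scaffold protein of sensory hair cells, by 0.49 (0.41 in edgeR), *Mospd3* by 0.59 (0.48) and *Bcl2l11*, which encodes the cell death protein BIM, by 0.50 (0.46). Each of these 5 had an adjusted p of at least 0.739 in limma and of 0.955 in edgeR. Without PLX5622 replicates 3 and 4 the *Whrn* difference was 0.37 and that of *Ndufc1* -0.81.

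Among the 129 lower genes, 9 had a difference from the other times at an unadjusted p under 0.05, all of them more negative at ZT14, against 168 lower of all 14580 genes. The 129 genes were chosen for low values at ZT14, which favours this direction. Apart from *Snhg9*, *Gh* and *Col15a1* these were genes with a lower mean in PLX5622 mice at all 6 times: *Hcls1*, *Tmem173*, *Fcgr1*, *Irf5*, *Psmb8* and *Abca9*, chosen after their values were seen. *Fcgr1*, which encodes the high-affinity IgG receptor, was at 1.73, 5.53 and 3.76 TPM in the control mice and 0.159, 0.0480, 0.208 and 0.213 TPM in the PLX5622 mice. *Tmem173*, the gene of the innate DNA sensor adaptor STING, was at 4.502, 4.41 and 8.35 TPM in the control mice and 0.702, 0.949, 0.674 and 0.427 TPM in the PLX5622 mice. In both genes the control mice varied, and all PLX5622 mice lay below them. The *Fcgr1* log2 fold change was -1.93 at ZT14 and -1.53, -1.13, -1.17, -1.09 and -1.39 at the other times in order, a difference of -0.67 (95% confidence interval -1.08 to -0.25), and that of *Tmem173* was -1.96 against -1.04, -1.42, -0.81, -1.08 and -1.26, a difference of -0.84 (95% confidence interval -1.47 to -0.20). *Hcls1*, a cytoskeletal adaptor of blood cells, was at 4.75, 4.03 and 4.66 TPM in the control mice and 0.504, 0.0961, 0.319 and 0.142 TPM in the PLX5622 mice and differed by -0.39. *Irf5*, an interferon regulatory factor of macrophages, differed by -0.43, *Psmb8*, an immunoproteasome subunit, by -0.57 and *Abca9*, a lipid transporter of macrophages, by -0.31. On the counts, edgeR gave differences of -1.06 for *Hcls1*, -0.29 for *Tmem173*, -0.88 for *Fcgr1*, -0.46 for *Irf5*, -0.04 for *Psmb8* and -0.36 for *Abca9*. *Psmb8* was not called lower at ZT14 by edgeR (adjusted p = 0.176) or DESeq2 (adjusted p = 0.285). In limma the adjusted p of the difference was at least 0.9999 for all 6.

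In cerebellar genes, single PLX5622 libraries of ZT14 stood out. Of 14 genes on the list, 10 were tested and limma called 0, with 2 at an unadjusted p under 0.05, against 628 of all 14580 genes, and edgeR and DESeq2 also called 0 of 14. *Pcp2*, a Purkinje cell protein, was at 0.261, 0.884 and 1.55 TPM in the control mice and 1.13, 0, 138 and 57.5 TPM in the PLX5622 mice. *Gabra6*, the granule cell subunit of the GABA-A receptor, was at 0.126, 0 and 0.186 TPM in the control mice and 0.0728, 0, 13.9 and 3.63 TPM in the PLX5622 mice with 4, 0 and 7 counts in the control mice and 2, 0, 424 and 130 in the PLX5622 mice. It was under a mean of 1 TPM over the 40 libraries of the other times and was not tested there. *Gabra6* reached this level over all libraries only through the PLX5622 mice of ZT14, so it is not taken as a difference. It remains in the counts and medians of this list. *Cbln3*, a granule cell secreted protein, was at 0.236, 0.138 and 0.354 TPM in the control mice and 0.347, 0.108, 17.1 and 6.02 TPM in the PLX5622 mice. In all 3 genes replicate 3 was highest and replicate 4 second, and replicates 1 and 2 lay near the controls. *Car8* and *Cbln1* had the same order, at 6.78, 6.69 and 6.40 TPM in the control mice and 7.28, 6.86, 27.5 and 13.3 TPM in the PLX5622 mice for *Car8* and 7.20, 6.48 and 6.09 TPM in the control mice and 5.31, 7.86, 36.1 and 19.9 TPM in the PLX5622 mice for *Cbln1*. The members *Fat2*, *En2* and *Ppp1r17*, untested in limma, had 11, 3 and 22 counts in the control mice and 22, 13, 533 and 156 in the PLX5622 mice, 24, 36 and 10 counts in the control mice and 33, 23, 134 and 80 in the PLX5622 mice and 5, 15 and 4 counts in the control mice and 20, 10, 153 and 64 in the PLX5622 mice, and *Barhl1* had 11, 35 and 11 counts in the control mice and 26, 8, 52 and 52 in the PLX5622 mice. These 4 were chosen after their values were seen. The most abundant member in the control mice was *Zic1*, which other brain regions express too, at 11.4, 12.3 and 19.99 TPM in the control mice and 13.9, 12.2, 27.2 and 23.9 TPM in the PLX5622 mice. Members listed at 0 numbered 1 in control replicate 2, 2 in PLX5622 replicate 2 and 0 in the other libraries of ZT14.

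The median log2 fold change of the 10 tested cerebellar genes was 0.58, against 0.03 over all genes tested, 0.34 without PLX5622 replicate 3 and -0.05 without replicates 3 and 4. These 10 genes, here and in the counts below, include *Gabra6*, which passed the filter only through the PLX5622 mice of ZT14. Relative to the other times the median difference was 0.71, against 0.01 over all genes, and it was 0.47 without replicate 3 and 0.24 without both. The difference had an unadjusted p under 0.05 in 6 of the 10 genes with all libraries, all higher at ZT14, against 505 of all 14580 genes, 337 of them higher, in 0 without replicate 3 and in 0 without both. None passed adjustment in limma, edgeR or DESeq2, and on the counts 12 of 14 had an unadjusted p under 0.05 in edgeR and 11 in DESeq2. At the other times, the libraries with the highest cerebellar sums were control replicate 2 of ZT10 with 315 TPM, control replicate 1 of ZT2 with 187 TPM, PLX5622 replicate 1 of ZT18 with 145 TPM and control replicate 2 of ZT6 with 138 TPM. At those times such libraries lay mainly in the control group, and at ZT14 both lay in the PLX5622 group. The median sum of the 40 libraries of the other times was 51.7 TPM. The part of cerebellar transcripts in other differences was not tested beyond leaving out these libraries.

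**Figure D3:**
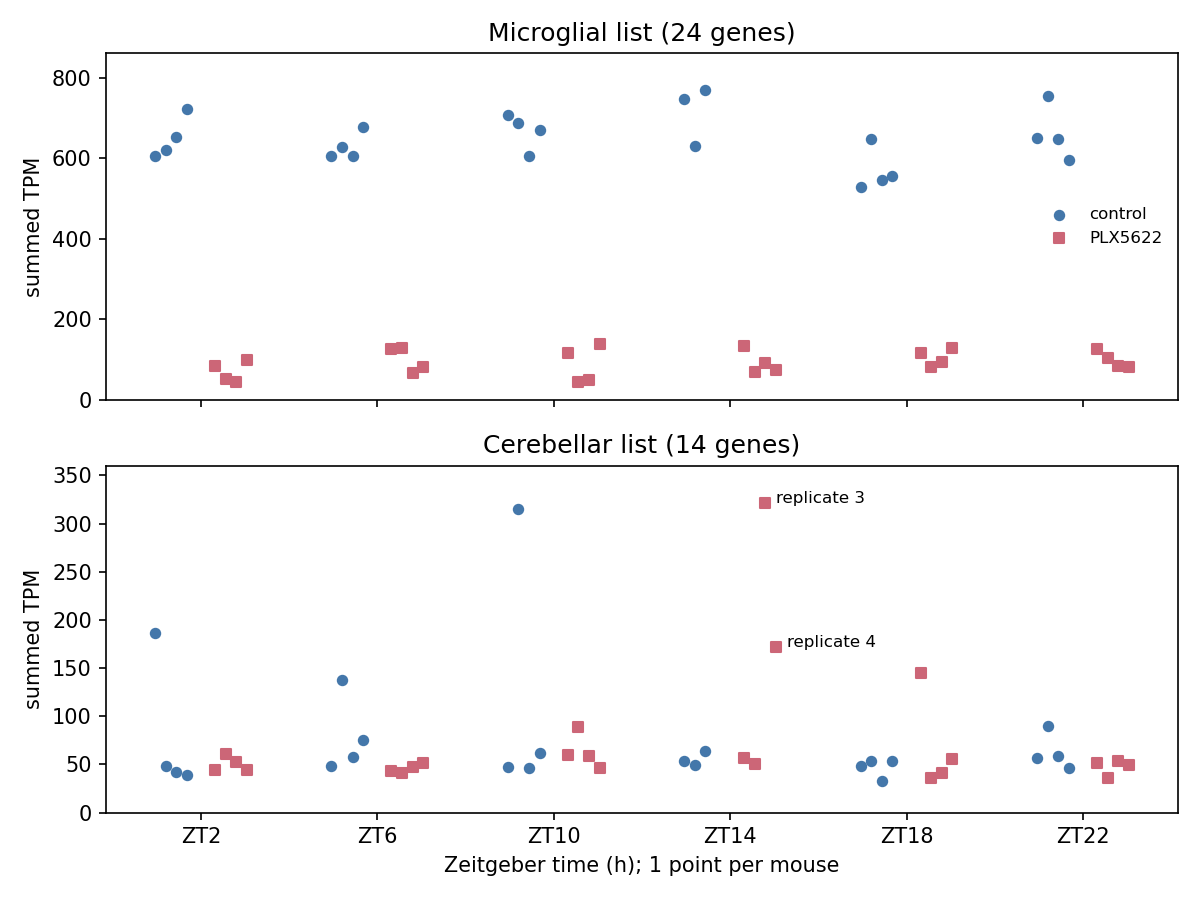
Summed TPM of 24 microglial genes (top) and 14 cerebellar genes (bottom) in each of the 47 mice by Zeitgeber time, with control mice as circles and PLX5622 mice as squares. The microglial sums of the 2 diets do not overlap at any time, and the cerebellar sum is 321 TPM in PLX5622 replicate 3 and 172 TPM in replicate 4 of ZT14.

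Genes of other brain regions also varied between single mice at ZT14. Of the choroid plexus list, 9 of 11 genes were tested and limma called 0, with 4 at an unadjusted p under 0.05, against 628 of all 14580 genes, while edgeR and DESeq2 called 0 of 11. The summed TPM was 397, 773 and 119 TPM in the control mice and 771, 927, 564 and 1115 TPM in the PLX5622 mice, with overlapping groups, and the median log2 fold change was 0.68. Of the 9 genes, 3 lay above all controls (3.17% over all genes tested), among them *Clic6*, a chloride channel protein, at 2.84, 5.67 and 2.60 TPM in the control mice and 7.03, 6.82, 6.19 and 5.83 TPM in the PLX5622 mice, and *Kl*, the gene of the hormone klotho, at 3.49, 4.32 and 2.12 TPM in the control mice and 4.87, 6.22, 5.66 and 6.60 TPM in the PLX5622 mice. Their adjusted p-values were 0.586 and 0.838. The hypothalamic list summed to 7.79, 116 and 8.67 TPM in the control mice and 203, 50.6, 107 and 73.5 TPM in the PLX5622 mice, with a median of 1.31 over 5 tested genes. Its most abundant gene, *Avp*, which encodes vasopressin, was at 0.246, 53.6 and 1.41 TPM in the control mice and 95.5, 9.54, 47.6 and 14.8 TPM in the PLX5622 mice (adjusted p = 1), and *Oxt*, which encodes oxytocin, at 0.864, 45.4 and 1.88 TPM in the control mice and 45.7, 34.8, 40.5 and 55.2 TPM in the PLX5622 mice (adjusted p = 0.996). The thalamic list summed to 50.1, 64.7 and 47.1 TPM in the control mice and 41.1, 46.1, 61.5 and 114 TPM in the PLX5622 mice and the hippocampal list to 23.1, 15.3 and 15.8 TPM in the control mice and 14.98, 18.9, 21.3 and 37.7 TPM in the PLX5622 mice. PLX5622 replicate 4 held the highest thalamic and hippocampal sums of all 47 libraries. The thalamic median was 0.14 with all libraries and -0.24 without PLX5622 replicates 3 and 4, and the hippocampal median 0.25 and -0.21. For the striatum the sums were 459, 1252 and 883 TPM in the control mice and 1013, 1047, 944 and 489.9 TPM in the PLX5622 mice (median 0.12), and for the olfactory bulb 7.04, 29.0 and 34.5 TPM in the control mice and 22.1, 16.7, 71.6 and 33.7 TPM in the PLX5622 mice (median 0.53). Without PLX5622 replicate 3 the olfactory median was 0.15, and without replicates 3 and 4 the olfactory and striatal medians were -0.10 and 0.42. limma, edgeR and DESeq2 called 0 genes of these 5 lists, and limma had 1 at an unadjusted p under 0.05, in the hypothalamic list. The part of these transcripts in other differences was not tested.

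Neuronal and vascular lists had medians near that of all genes. The median was -0.02 for 11 genes of cortical excitatory neurons, 0.02 for 9 of interneurons, 0.11 for 9 of endothelium, 0.00 for 9 of mural cells and -0.01 for 8 of meningeal fibroblasts. Without PLX5622 replicates 3 and 4 these medians were -0.14, -0.11, -0.04, -0.05 and -0.17 in order, against -0.03 over all genes tested. The endothelial median was 0.05 without replicate 3 alone. All of these genes were tested, and limma, edgeR and DESeq2 called 0 of them, with 0 at an unadjusted p under 0.05 in limma. Hemoglobin genes marked the blood left in each sample, with summed TPM of 1751, 437 and 1541 TPM in the control mice and 1021, 2285, 994 and 307 TPM in the PLX5622 mice and a median of -0.19 over 5 genes (0.47 without PLX5622 replicates 3 and 4), of which limma, edgeR and DESeq2 called 0 and limma had 0 at an unadjusted p under 0.05.

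Glial lists other than microglia held 1 call in limma, *C4b*, which is also a member of the reactive astrocyte list. *Gfap*, the intermediate filament of astrocytes, was at 177, 113 and 133 TPM in the control mice and 253, 228, 216 and 253 TPM in the PLX5622 mice. All 4 PLX5622 mice lay above the controls, but the log2 fold change of 0.76 (standard error 0.23) did not pass (limma adjusted p = 0.192, edgeR adjusted p = 0.341), and at the other times it was 0.45, 0.46, 0.64, 0.72 and 0.32 in order. With the replicate block limma called *Gfap* higher (adjusted p = 0.0169). *S100b*, a calcium-binding protein of astrocytes, was at 209, 197 and 162 TPM in the control mice and 245, 215, 226 and 242 TPM in the PLX5622 mice (adjusted p = 1). Of 9 astrocyte genes 2 lay above all controls without overlap, with a median of 0.15, and of 6 tested reactive astrocyte genes 2, with a median of 0.28, which was 0.18 without PLX5622 replicate 3 and 0.03 without replicates 3 and 4. Over all genes tested, 3.17% lay above all controls. The 11 myelin and oligodendrocyte genes had a median of 0.31 (0.18 without PLX5622 replicates 3 and 4), with 1 above all controls, 0 called by limma, edgeR and DESeq2, and 2 at an unadjusted p under 0.05. *Mbp*, which encodes myelin basic protein, was at 3289, 3122 and 2335 TPM in the control mice and 4534, 3391, 3011 and 4037 TPM in the PLX5622 mice (log2 fold change 0.36, adjusted p = 1). The groups overlapped, and the difference from the other times was 0.54 (95% confidence interval 0.09 to 1.0, adjusted p = 0.9999). The 7 precursor genes had a median of 0.13 (0.05 without them), with 0 called by limma, 1 at an unadjusted p under 0.05, and 1 called higher by edgeR and DESeq2, *Enpp6*. *Neu4*, a sialidase, was at 4.75, 4.06 and 4.53 TPM in the control mice and 3.28, 2.95, 3.65 and 3.51 TPM in the PLX5622 mice, below all controls without passing (adjusted p = 0.880). Of 9 genes of perineuronal nets 8 were tested, with a median of 0.03, 1 at an unadjusted p under 0.05 in limma and 0 called by limma, edgeR or DESeq2. The most abundant, the proteoglycan gene *Bcan*, was at 152, 128 and 134 TPM in the control mice and 177, 142, 159 and 152 TPM in the PLX5622 mice (log2 fold change 0.19, adjusted p = 1).

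ZT14 lies 2 h after lights-off, so genes of the molecular clock were examined. Limma, edgeR and DESeq2 called 0 of 20 clock genes, limma had 0 at an unadjusted p under 0.05, and 0 lay outside the control range in all 4 PLX5622 mice. The median was 0.02, and the log2 fold changes ran from -0.18 to 0.27. *Per1*, a repressor, was at 36.4, 35.2 and 42.1 TPM in the control mice and 33.1, 31.8, 35.6 and 32.6 TPM in the PLX5622 mice (log2 fold change -0.18, standard error 0.20). *Per2*, its relative, was at 11.3, 11.8 and 11.4 TPM in the control mice and 17.7, 10.1, 10.6 and 9.96 TPM in the PLX5622 mice (log2 fold change 0.03, standard error 0.23). Among the PLX5622 mice replicate 1 was high in *Per2* alone of the 2 genes. *Arntl*, the activator BMAL1, was at 7.93, 7.92 and 9.66 TPM in the control mice and 8.25, 8.17, 9.25 and 9.76 TPM in the PLX5622 mice, and *Dbp*, an output gene, at 129, 116 and 139 TPM in the control mice and 141, 115, 129.9 and 119 TPM in the PLX5622 mice. Differences of the clock genes from the other times had 95% confidence intervals that included 0, such as -0.14 to 0.37 for *Dbp* and -0.38 to 0.22 for *Nr1d1*. These intervals do not show that the genes are equal.

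Genes of neuronal activity and stress passed no test in limma. The 17 immediate-early genes had a median of -0.12 (-0.26 without PLX5622 replicates 3 and 4). They had 0 calls by limma, edgeR or DESeq2, with 0 at an unadjusted p under 0.05. *Arc*, the most abundant, was at 165, 159 and 240.4 TPM in the control mice and 167, 159, 125 and 202 TPM in the PLX5622 mice. Control replicate 3 was the highest of the controls, and the groups overlapped. Of 13 glucocorticoid-responsive genes limma, edgeR and DESeq2 called 0, with 2 at an unadjusted p under 0.05 in limma, and 2 lay above all controls, with a median of 0.15. Over all 14580 genes, 628 had an unadjusted p under 0.05 and 3.17% lay above all controls. *Sgk1*, a kinase induced by glucocorticoids, was at 32.4, 31.6 and 32.6 TPM in the control mice and 54.2, 35.5, 49.0 and 48.9 TPM in the PLX5622 mice. *Hif3a*, a hypoxia-inducible factor, was at 2.32, 1.80 and 1.42 TPM in the control mice and 3.94, 2.51, 3.87 and 2.62 TPM in the PLX5622 mice. Their differences from the other times were 0.52 (95% confidence interval 0.06 to 0.98) and 0.68 (95% confidence interval 0.10 to 1.27), with an adjusted p of 0.9999 and 0.9999. Of these 13 genes, 4 had a difference at an unadjusted p under 0.05, all higher at ZT14, against 337 higher of 14580. Their median difference was 0.18, and 0.05 without PLX5622 replicate 3. Without PLX5622 replicates 3 and 4, 2 had a difference at an unadjusted p under 0.05. The median log2 fold change of the list was then 0.06. Of 9 chaperone genes of the endoplasmic reticulum limma called 0, with 1 at an unadjusted p under 0.05, while edgeR and DESeq2 each called 1 lower, *Sdf2l1*, at 13.96, 18.6 and 20.9 TPM in the control mice and 11.7, 10.9, 10.7 and 13.9 TPM in the PLX5622 mice (limma adjusted p = 0.245, edgeR adjusted p = 0.0122, and 0.0876 in edgeR without PLX5622 replicate 3). The chaperone median was -0.14 (-0.31 without PLX5622 replicates 3 and 4). Cold-inducible and heat shock genes had a median of -0.19 over 9 genes (-0.31 without PLX5622 replicates 3 and 4), 0 calls by all 3 tools, 2 at an unadjusted p under 0.05 in limma and 2 above all controls, 1 of them *Rbm3*, a cold-inducible RNA-binding protein, at 170.3, 176 and 175 TPM in the control mice and 196, 195, 209 and 212 TPM in the PLX5622 mice (adjusted p = 1). Cholesterol synthesis genes had a median of 0.03 over 10 genes, 0 calls by all 3 tools, 0 at an unadjusted p under 0.05 in limma, and 1 above all controls.

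The promoters of the lower genes were also searched for a sequence motif. PU.1, the ETS factor of the myeloid lineage, binds purine-rich sites, and both strands of each promoter were searched for GAGGAA and for GAGGAAGT, which contains it. RefSeq promoters of 300 bases, from 250 before to 50 after the start, were matched by symbol to 95 of the 129 genes, with 109 promoters. GAGGAA was found in 56 of these (51.4%), against 26.3% of the promoters of all genes tested and 28.3% of all 32851 promoters. GAGGAAGT was found in 14 (12.8%), against 2.63% and 3.2%. A match describes the letters in this window and is no measured binding. Promoters of 4 of the genes described above are shown because they hold the shorter motif, which is in capitals as written or as its reverse complement. All are from build GRCm38.p6, and each reads 5′ to 3′ on the strand of its gene. *Ctss* (chr3:95526536-95526835, plus strand) had 2 matches, 1 of them part of the longer motif. *C1qb* (chr4:136886151-136886450, minus strand) had 1, *C1qc* (chr4:136892865-136893164, minus strand) had 1 that is part of the longer motif, and *Trem2* (chr17:48346151-48346450, plus strand) had 1. *P2ry12* had 0 matches, and *C1qa*, *Selplg* and *Tyrobp* had no matched entry. *Csf1r* was left out of the promoters examined singly, so whether it holds the motif is not reported.
Ctss: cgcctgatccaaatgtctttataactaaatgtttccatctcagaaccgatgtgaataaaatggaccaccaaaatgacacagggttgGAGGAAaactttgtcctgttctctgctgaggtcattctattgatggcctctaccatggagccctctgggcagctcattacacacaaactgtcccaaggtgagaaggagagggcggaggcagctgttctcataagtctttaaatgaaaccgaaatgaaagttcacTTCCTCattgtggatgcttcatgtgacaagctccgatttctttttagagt
C1qb: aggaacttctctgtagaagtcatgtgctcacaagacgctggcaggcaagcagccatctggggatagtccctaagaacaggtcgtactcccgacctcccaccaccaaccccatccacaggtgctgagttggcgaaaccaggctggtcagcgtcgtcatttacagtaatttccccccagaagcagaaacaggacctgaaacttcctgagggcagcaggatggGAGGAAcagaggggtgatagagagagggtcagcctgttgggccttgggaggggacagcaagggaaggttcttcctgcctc
C1qc: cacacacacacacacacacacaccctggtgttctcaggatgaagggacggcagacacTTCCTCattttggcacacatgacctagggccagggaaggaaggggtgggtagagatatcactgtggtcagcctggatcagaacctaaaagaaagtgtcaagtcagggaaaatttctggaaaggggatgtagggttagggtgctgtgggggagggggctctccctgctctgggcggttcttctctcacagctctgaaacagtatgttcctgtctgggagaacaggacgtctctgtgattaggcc
Trem2: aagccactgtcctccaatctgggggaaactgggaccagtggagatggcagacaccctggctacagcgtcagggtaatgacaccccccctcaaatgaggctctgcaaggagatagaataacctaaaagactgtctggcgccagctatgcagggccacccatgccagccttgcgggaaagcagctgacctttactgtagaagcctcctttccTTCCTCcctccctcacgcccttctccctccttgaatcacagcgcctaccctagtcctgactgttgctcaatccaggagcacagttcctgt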

How the data were processed

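Cortical RNA was sequenced from 47 mice, 1 library per mouse, in 12 groups of diet and Zeitgeber time taken from the labels. The authors mapped reads with STAR 2.7.0f to GRCm38.p6, kept those on primary chromosomes and ran Salmon 1.0.0 with a Gencode annotation, release not stated, to obtain TPM (transcripts scaled by length and depth). The deposited TPM table holds 54281 genes. The deposited count table, although named for FPKM, holds whole-number counts for 54532 genes. Which tool and annotation made the counts was not stated. The tables share 53068 genes, and GENCODE M21 gave symbols and positions.

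Here log2(TPM + 1) was fitted for 14580 genes, those whose mean reached 1 TPM, with limma 3.58.1 (lmFit and eBayes, 12 group means). PLX5622 was compared with control at ZT14, and this effect with the mean effect at the other 5 times, with Benjamini-Hochberg adjustment over all genes tested and a threshold of 0.05. The 12 groups share 1 estimate of spread. The scripts were tested on simulated data. Other software was R 4.3.3, Python 3.11.15, matplotlib 3.10.9, pandas 2.3.3 and numpy 2.4.6. Library totals at ZT14 ranged from 18777482 to 27626161 counts, and genes with few counts were measured with little precision.

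Alternatives were edgeR 4.0.16 and DESeq2 1.42.0 on the counts, ratio scaling of TPM, no filter, a filter at a mean of 5 TPM, a pseudocount of 0.1, trend and robust settings, only the libraries of ZT14, the replicate number as a block, the mitochondrial share as covariate, a threshold of 0.01, other comparison times and each library left out in turn. edgeR without PLX5622 replicate 3 and limma without replicates 3 and 4 of ZT14 were chosen after seeing the data.

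The rule named the 10 largest fold changes per direction among called genes whose groups do not overlap, the 10 smallest p of the difference, every tested gene of the clock, cerebellum, CSF1R ligand, complement and border macrophage lists, and from each other list the most abundant gene and the 2 with the smallest p. Not every gene so named is printed, and a few are not reported here. The members and lists were chosen with earlier results of these data known.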

Additional observations from a re-analysis of the deposited data

Results flagged for a closer look

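Among the PLX5622 mice of ZT14, a value was marked where 1 mouse stood so far from the other 3 that the gap passed the 95% limit of Dixon's test for 4 values. Of 164 such groups examined, 10 were marked, where chance alone would mark about 8.2 (1 in 20). Groups of 3 control mice were not tested. All 10 marked values were the highest of their group, and 8 of them are given here.

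Of the marked values, 5 belonged to PLX5622 replicate 1. They were *Selplg* at 3.43 TPM (other mice 0.884 to 1.29 TPM), *C1qc* at 13.1 TPM (3.36 to 4.20 TPM), *Trem2* at 5.65 TPM (1.83 to 2.04 TPM), *Per2* at 17.7 TPM (9.96 to 10.6 TPM) and the summed TPM of 9 astrocyte genes at 2938 TPM (2561 to 2608 TPM). The other 5 belonged to PLX5622 replicate 4, of which 3 are given. They were *C1ql2*, a gene of the hippocampal dentate gyrus, at 18.2 TPM (4.85 to 6.92 TPM), *Lef1*, a gene of the thalamus, at 5.41 TPM (3.07 to 3.35 TPM), and the summed TPM of 17 immediate-early genes at 726 TPM (521 to 548.5 TPM). Replicates 2 and 3 held 0 marked values.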

How the results depend on the processing

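The count of lower genes at ZT14, 129, was 268 in edgeR, 263 in DESeq2, 201 with no filter, 38 with a filter at a mean of 5 TPM and 241 in edgeR without PLX5622 replicate 3, the last chosen after seeing the data. These settings test other genes or another unit, and otherwise the cause was not tested. Leaving out each library in turn gave 106 to 130 lower genes. The count of higher genes, 3, was 5 with no filter, 9 with the mitochondrial share as covariate and 6 with the replicate block, and 1 to 9 with each library left out, where the cause was not tested. The count of genes whose diet effect at ZT14 differed from the other times, 0, was 2 with no filter, *Gm7931* and *Cd163*, and 0 to 3 with each library left out. With no filter 33748 genes were tested. *Gm7931* was listed at 0 in every PLX5622 mouse of ZT14, in control replicate 1 and in all 40 libraries of the other times, so its call rested on 2 control mice at 2.61 and 1.54 TPM, and the *Cd163* difference was -0.45 (limma adjusted p = 0.0233). Both were chosen after their values were seen.

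The replicate number was also fitted as a replicate block, which gave 132 lower genes, 6 higher genes and 0 genes for the difference, with *Gfap* as the only named gene whose call it changed (adjusted p = 0.0169 in limma). Same-numbered control and PLX5622 mice of ZT14 correlated by 0.0685, 0.0104 and 0.199 in their deviations from the group means, and not all exceeded 0.1, so the numbers were not taken as pairs. Control replicates 1 and 2 did not correlate best with the PLX5622 mouse of their own number, and control replicate 3 did.

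Of 131 named genes, 25 were called at ZT14, of which 17 kept the call under every setting that tested them, 5 of them not tested with a filter at a mean of 5 TPM, and 8 lost it without at least 1 library. None reversed. A call was gained under at least 1 setting by 7 others, among them *Cbr2*, *B2m*, *H2-Eb1*, *Sdf2l1*, *Gfap* and *Enpp6*.

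The comparison rests on 3 control mice, and every value comes from 1 library per mouse. Bulk tissue does not separate cell number from expression per cell. Neither dissection nor collection order was recorded per mouse in the labels, so in genes called at ZT14 alone, library effects and tissue composition cannot be told apart from the diet effect. Low counts limit genes under about 1 TPM, which limma did not test. A difference that missed the threshold does not show equal effects at all times.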
